A study of Anguilla japonica with 6 samples.

Results

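Growth hormone and somatolactin are pituitary hormones of one family, and the IGF-1 and insulin receptors with their adaptor IRS-2 relay the signals of insulin and of IGF-1, a factor that growth hormone induces. The genes described here are gh1, smtlb, igf1ra, insrb and irs2b, taken by symbol from the deposited expression table, and all 5 were found among its 32359 genes. They were measured by RNA-seq in pituitary tissue of female Japanese eel (Anguilla japonica), with 3 libraries from animals labelled matured and 3 from animals labelled pre-matured. The labels give sex, tissue and maturation state and no treatment, strain or age in years, so how the matured animals reached that state was not analysed here. Nothing beyond the sample titles says that each library is a separate animal, and p-values measure the spread between these samples only.

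In teleost fish, growth hormone is made by somatotrophs of the front part of the gland and somatolactin by cells bordering the neural lobe, and both cell types depend on the transcription factor POU1F1. Growth hormone raises IGF-1 in liver and other tissues. IGF-1 and insulin bind receptor tyrosine kinases that phosphorylate IRS adaptors, which recruit PI3-kinase and activate AKT, and IGF-1 feeds back on the pituitary to restrain growth hormone. In cultured pituitary cells of the European eel, IGF-1 is known to raise the production of luteinizing hormone.

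Values are FPKM, that is, read numbers corrected for how long the gene is and how deeply the library was sequenced, so levels can be set side by side between genes. Depths rebuilt from the values were 16033675 to 19619964 reads per library. Of 17887 genes tested with limma on log2(FPKM + 1), 23.4% were higher in matured pituitaries at a Benjamini-Hochberg adjusted p under 0.05. Groups that do not overlap, with matured higher, were found for 33.3% of tested genes. Of the 5 genes, 4 were higher and 0 lower, with groups that do not overlap, and smtlb did not pass. All 5 met the filter on low values, igf1ra through the matured libraries alone. Over all genes the median log2 fold change was 0.23, and it was 0.54 after rescaling to TPM and 0.02 with median-ratio scaling. The split of all calls moved with it, from 4184 higher and 1797 lower to 5818 and 978 with TPM and to 3027 and 2737 with quantile normalization. Across the 14 alternative settings the sign of the 5 genes' fold changes stayed positive wherever the gene was tested.

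**Figure D1:**
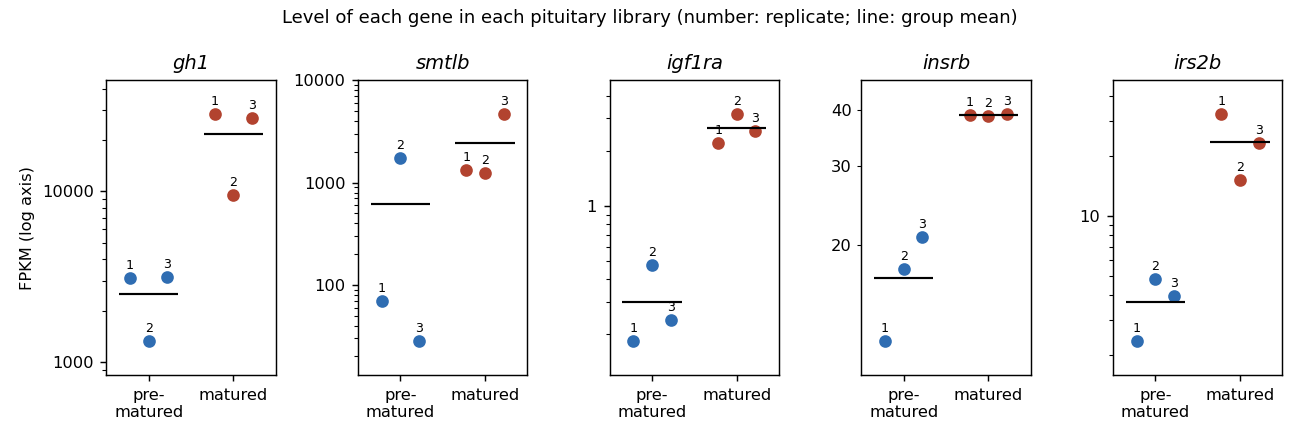
FPKM of gh1, smtlb, igf1ra, insrb and irs2b in 3 pre-matured (blue) and 3 matured (red) libraries, each panel on its own log axis, with the replicate number over each point and a line at the group mean. The groups are apart for every gene but smtlb, where pre-matured 2 lies above matured 1 and 2.

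The growth hormone gene, gh1, stood at 28533, 9484 and 26965 FPKM in matured 1, 2 and 3 and at 3092, 1321 and 3141 FPKM in pre-matured 1, 2 and 3. Every matured library was above every pre-matured one, and matured 2 and pre-matured 2 were the lowest of their groups. The mean level rose 8.60-fold, from 2518 ± 1037 to 21661 ± 10574 FPKM (SD, n = 3 per group). On the log2(FPKM + 1) scale the difference was 3.05 ± 0.50 (SE), with a 95% confidence interval of 1.87 to 4.23 and a limma adjusted p of 0.00479. Behind these levels stood 229435 to 564080 rebuilt reads in matured and 30293 to 73495 in pre-matured libraries, so counting error was far under the spread between libraries.

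Among all genes gh1 had the highest FPKM in matured 1 and 3 and the second highest in matured 2, where it ranked 2. In pre-matured 1, 2 and 3 it ranked 50, 100 and 25. It held 5.44%, 1.90% and 4.95% of the FPKM total in matured libraries, against 0.434%, 0.213% and 0.490% in pre-matured ones. These shares did not overlap. The difference of 3.72 percentage points had an exact two-sided permutation p of 0.1, the smallest that 3 against 3 libraries can give, and 0.167 after Benjamini-Hochberg adjustment over the 5 single-value measures tested here.

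Somatolactin, smtlb, stood at 1342, 1244 and 4698 FPKM in matured 1, 2 and 3. In pre-matured 1, 2 and 3 it was at 68.9, 1757 and 28.1 FPKM. Pre-matured 2 was thus above matured 1 and 2, while pre-matured 1 and 3 were far below all matured libraries. The log2 difference was 3.70 ± 1.42 (SE) with a 95% confidence interval of 0.38 to 7.02, an unadjusted p of 0.0335 and a limma adjusted p of 0.0823, which did not pass. Without pre-matured 2 the log2 difference was 5.46 and the limma adjusted p 0.00468, and with quantile normalization it was 4.25 with an adjusted p of 0.0420. Over the 14 alternatives the limma adjusted p ran from 0.00468 to 0.211. The rebuilt reads were 40793 in pre-matured 2 against 1658 and 639 in pre-matured 1 and 3, a gap that counting error does not reach.

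Both hormones were lowest of the matured libraries in matured 2, and their levels were closest to each other in pre-matured 2. The FPKM of smtlb was 0.0470, 0.131 and 0.174 times that of gh1 in matured 1, 2 and 3. In pre-matured 1, 2 and 3 it was 0.0223, 1.33 and 0.00895 times. Pre-matured 2 held the lowest gh1 and the highest smtlb of its group, and it was the library in which smtlb exceeded gh1. The mean log2 ratio of smtlb to gh1 differed by 0.67 between groups, against a within-group SD of 0.99 in matured and 3.84 in pre-matured libraries (exact two-sided permutation p = 0.9). That difference changed sign to -0.09 without pre-matured 1 and to -0.75 without pre-matured 3, so no direction could be read for this ratio from 6 libraries.

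**Figure D2:**
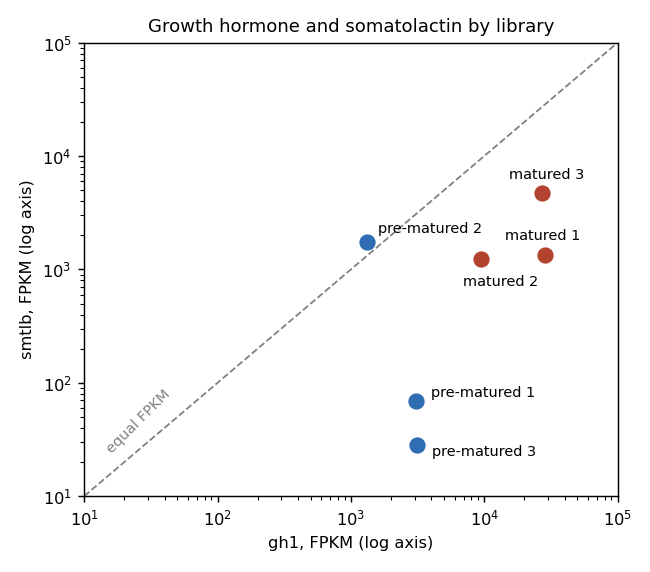
FPKM of gh1 (x axis, log) against FPKM of smtlb (y axis, log) in the 3 matured (red) and 3 pre-matured (blue) libraries, with a dashed line where the 2 genes have equal FPKM. Only pre-matured 2 lies above that line, at 1321 FPKM of gh1 and 1757 FPKM of smtlb.

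The gene of the shared lineage factor, pou1f1, gave 257, 275 and 218 FPKM in matured 1, 2 and 3 and 208, 366 and 309 FPKM in pre-matured 1, 2 and 3. These groups overlapped, and the log2 difference of -0.20 (95% confidence interval -0.75 to 0.34) did not pass (limma adjusted p = 0.548). It was 0.13 with TPM and also when genes above 1% were left out of the library totals, without passing. The FPKM of gh1 was 111, 34.5 and 124 times that of pou1f1 in matured libraries, against 14.9, 3.61 and 10.2 times in pre-matured ones. This ratio, chosen after the values were seen, does not depend on library scaling. Its log2 difference was 3.25, with groups that do not overlap and an exact two-sided permutation p of 0.1, the smallest possible. The ratio of smtlb to pou1f1 was 5.22, 4.52 and 21.5 in matured and 0.331, 4.81 and 0.0911 in pre-matured libraries, which overlapped (exact permutation p = 0.2). The library pre-matured 2 had the highest pou1f1 as well as the highest smtlb of its group. In bulk tissue, more somatotrophs and more gh1 RNA per somatotroph cannot be told apart.

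Among the receptors, the insulin receptor gene insrb stood at 38.9, 38.8 and 39.2 FPKM in matured 1, 2 and 3. In pre-matured 1, 2 and 3 it was at 12.3, 17.7 and 20.9 FPKM. The mean rose 2.30-fold, from 16.95 ± 4.37 to 38.98 ± 0.173 FPKM (SD, n = 3 per group), with a log2 difference of 1.19 ± 0.22 (SE; 95% confidence interval 0.67 to 1.70; limma adjusted p = 0.00589). On deposited FPKM the matured libraries had a coefficient of variation of 0.444%, under the counting error of 1.76% given by their 3000 to 3661 reads. That closeness varied with the scaling. The coefficient was 1.58% when genes above 1% were left out of the library totals, 3.90% with TPM and 6.18% with median-ratio scaling. In pre-matured libraries the coefficient of variation was 25.8% on deposited FPKM, with a counting error of 2.57%. It was 29.7% when genes above 1% were left out of the library totals, 30.6% with TPM and 18.5% with median-ratio scaling.

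The IGF-1 receptor gene igf1ra was weakly expressed, at 2.21, 3.18 and 2.57 FPKM in matured 1, 2 and 3 and at 0.184, 0.480 and 0.241 FPKM in pre-matured 1, 2 and 3. All matured libraries were above all pre-matured ones. The gene met the filter on low values, 1 FPKM in 3 libraries, through the matured libraries alone, so it could be tested only because it was higher there. The mean FPKM rose 8.80-fold, from 0.302 ± 0.157 to 2.65 ± 0.491 (SD, n = 3 per group). The log2(FPKM + 1) difference was 1.49 ± 0.24 (SE), with a 95% confidence interval of 0.93 to 2.04 and a limma adjusted p of 0.00341. The added 1 compresses the change of so low a gene: the log2 difference was 2.83 with an added 0.1 and 2.94 with voom on rebuilt reads. The pre-matured values rest on 21, 53 and 26 rebuilt reads, with exact 95% Poisson intervals of 13.0 to 32.1, 39.7 to 69.3 and 17.0 to 38.1 that cover counting error only. The matured libraries held 210, 370 and 248 reads.

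The adaptor gene irs2b stood at 32.5, 15.1 and 23.1 FPKM in matured 1, 2 and 3 and at 2.35, 4.82 and 3.96 FPKM in pre-matured 1, 2 and 3. The groups did not overlap, and matured 2 was the lowest matured library here as it was for gh1. The mean rose 6.35-fold, from 3.71 ± 1.25 to 23.6 ± 8.67 FPKM (SD, n = 3 per group). The log2 difference was 2.36 ± 0.33 (SE; 95% confidence interval 1.62 to 3.10; limma adjusted p = 0.00208). The other IRS gene matched by symbol, irs1, was at 1.08, 1.02 and 0.543 FPKM in the matured glands, and 1.40, 1.602 and 2.39 FPKM in those labelled pre-matured. Its groups did not overlap, with matured lower, as for 15.9% of tested genes. Its log2 difference of -0.57 did not pass (95% confidence interval -1.17 to 0.03; limma adjusted p = 0.128), though it passed with quantile normalization and with voom (adjusted p = 0.0277 and 0.0354, in a range of 0.0277 to 0.353 over its alternatives). The FPKM of irs2b was 30.0, 14.8 and 42.5 times that of irs1 in matured 1, 2 and 3, against 1.68, 3.01 and 1.66 times in pre-matured 1, 2 and 3. This ratio was also chosen after the values were seen. Its log2 difference was 3.71, with an exact two-sided permutation p of 0.1, the smallest possible.

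The order of levels in matured libraries was gh1, smtlb, insrb, irs2b and igf1ra, and no 2 neighbours in that order overlapped. In pre-matured libraries the order of means was the same. There gh1 and smtlb overlapped, with 1321 to 3141 against 28.1 to 1757 FPKM, while the other neighbours did not.

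**Figure D3:**
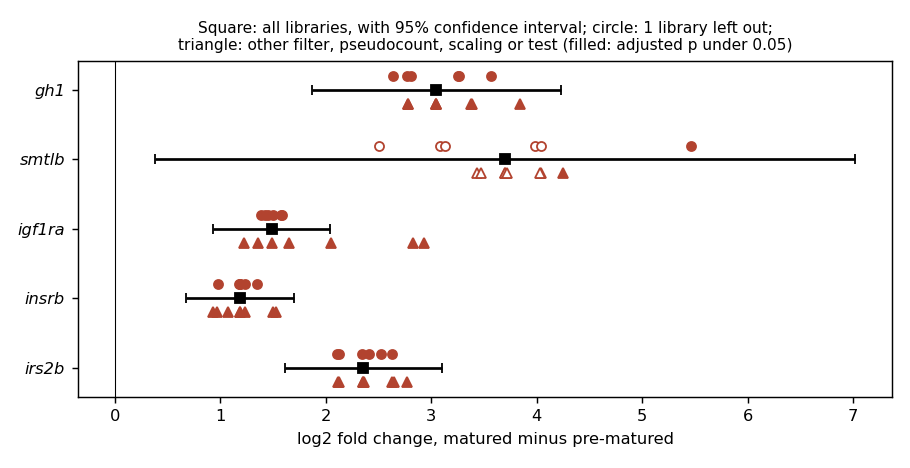
Log2 fold change (x axis, matured minus pre-matured) of each gene with all libraries and its 95% confidence interval (square), with 1 library left out (circles) and under other filters, pseudocounts, scalings or tests (triangles), filled where the limma adjusted p is under 0.05. All points lie above 0, and open points are found for smtlb alone, whose interval of 0.38 to 7.02 is the widest.

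Receptors for factors that act on somatotrophs were the next group. Of 13 tested regulators of growth hormone secretion, 7 rose and 0 fell, beside 21.9% higher and 10.6% lower among tested genes with a symbol. Their median log2 fold change was 1.34, beside 0.23 for all genes tested. The ghrelin receptor gene ghsra, through which ghrelin releases growth hormone in mammals and fish, was at 22.7, 11.1 and 15.4 FPKM in matured 1, 2 and 3. It was at 0.941, 0.504 and 1.37 FPKM in pre-matured 1, 2 and 3 (log2 fold change 3.14 ± 0.31 SE, limma adjusted p = 0.000902). On log2(FPKM + 1) it was also the gene with the pattern most like that of gh1, and its lowest libraries were matured 2 and pre-matured 2, as for gh1. In mean FPKM, however, ghsra rose 17.5-fold against 8.60-fold for gh1. The thyroid hormone receptor gene thrb rose from 4.46 ± 1.54 to 35.4 ± 8.86 FPKM (SD, n = 3; log2 fold change 2.74, limma adjusted p = 0.000902).

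Receptors for hypothalamic peptides were among the higher ones. The corticotropin-releasing hormone receptor gene crhr1 rose to 10.2 ± 6.19 FPKM from 0.786 ± 0.483 (SD, n = 3; limma adjusted p = 0.00416). The VIP and PACAP receptor gene vipr1b rose to 16.6 ± 5.10 FPKM from 4.84 ± 0.824 (SD, n = 3; limma adjusted p = 0.00441). The PACAP receptor gene adcyap1r1b had 2.34, 1.14 and 2.04 FPKM in the matured glands, while pre-matured 2 and 3 had 0.198 and 0.129 FPKM and the listed value of pre-matured 1 was 0 (limma adjusted p = 0.00607). Like igf1ra it met the filter through the matured libraries alone, so its place among the 7 could only be on the higher side. The genes ghsra, crhr1 and galr1a could not have met the filter without the matured libraries either. In pre-matured 1, 2 and 3 crhr1 was at 0.596, 0.428 and 1.33 FPKM and galr1a at 0, 1.85 and 0.745 FPKM. The count of higher genes and the median of this list thus include genes tested because they were high in matured libraries. With no filter 8 of 23 rose and 0 fell, and the median was 0.87 beside 0.10 for all genes. With a 5 FPKM filter 4 of 5 rose and 0 fell, and the median was 1.55 beside 0.20. The glucocorticoid receptor gene nr3c1 and the galanin receptor gene galr1a were up by 0.99 and 1.82 on the log2 scale (limma adjusted p = 0.0192 and 0.0271). The call of nr3c1 was lost without matured 1 or matured 2, and that of galr1a in 7 of 13 alternatives. The somatostatin receptor gene sstr1a, whose ligand inhibits growth hormone release, stood at 1.46, 2.56 and 2.06 FPKM in the matured glands, and 2.75, 4.94 and 10.8 FPKM in those labelled pre-matured. Its log2 difference of -1.10 did not pass (limma adjusted p = 0.0706). Another somatostatin receptor gene, sstr2a, lay the other way, at 5.53, 0.620 and 4.33 FPKM in matured 1, 2 and 3. In pre-matured 1, 2 and 3 sstr2a was at 0, 0.0156 and 0 FPKM. It reached 1 FPKM in too few libraries to be tested.

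Genes of the growth hormone and prolactin receptor cascade gave 1 of 11 tested genes higher and 0 lower, 9.09% higher beside 21.9% of tested genes with a symbol. Their median log2 fold change was -0.31, or -0.54 relative to all genes. The relative value moved with the filter and with single libraries. It was -0.04 without pre-matured 3, -0.29 without matured 1, -0.15 with a 5 FPKM filter and -0.18 with no filter. In the other alternatives it ran from -0.64 to -0.46. The member that rose was ptpn11a, which encodes the phosphatase SHP2, to 5.004 ± 0.756 FPKM from 1.79 ± 0.529 (SD, n = 3; limma adjusted p = 0.0133), and its call was lost with quantile normalization and without matured 1 or matured 2. With TPM 4 rose and 0 fell, and with quantile normalization 0 rose and 3 fell, so the list's balance follows the scaling. The signal transducer gene stat5a gave 15.7, 17.1 and 14.01 against 10.6, 13.2 and 10.2 FPKM, and the feedback inhibitor gene socs2 gave 13.5, 11.5 and 10.9 against 2.64, 10.2 and 5.79 FPKM. Neither passed (limma adjusted p = 0.130 and 0.0767). The growth hormone receptor gene ghra was at 0.715 to 0.846 FPKM in matured and 0.478 to 1.26 FPKM in pre-matured libraries and was too low to enter the test.

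Of the IGF ligands and binding proteins, 4 passed the filter on low values, and 2 rose and 1 fell, too few to set against the 21.9% and 10.6% of tested genes with a symbol. The IGF-1 gene, igf1, reached 11.8, 8.27 and 12.4 FPKM in matured 1, 2 and 3 and 1.7997, 4.03 and 0.417 FPKM in pre-matured 1, 2 and 3. Its log2 fold change was 2.11 ± 0.44 (SE; limma adjusted p = 0.00838). The binding protein gene igfbp1a was at 62.1, 34.7 and 88.1 FPKM in the matured glands, and 8.83, 22.2 and 11.8 FPKM in those labelled pre-matured (log2 fold change 2.03 ± 0.41 SE, limma adjusted p = 0.00767). The protease gene pappa2, whose human product cleaves IGF-binding proteins, went the other way. It reached 4.11, 5.37 and 4.82 FPKM in matured 1, 2 and 3 and 27.4, 58.0 and 48.1 FPKM in pre-matured 1, 2 and 3. Among tested genes of the 7 lists its fall on log2(FPKM + 1) was the largest (log2 fold change -2.92 ± 0.29 SE, limma adjusted p = 0.000902). The stanniocalcin gene stc2a, too low to be tested, was at 0.0748 ± 0.0377 against 0.928 ± 1.01 FPKM (SD, n = 3), a 12.4-fold lower mean where that of pappa2 was 9.33-fold lower. The fold of stc2a rests on very few reads, with a counting error of 86.6% in matured libraries. Its values in pre-matured 1, 2 and 3 were 0.196, 0.509 and 2.08 FPKM. The member that did not pass, igfbp3, was at 4.37, 4.75 and 11.3 against 0.676, 3.77 and 3.52 FPKM (limma adjusted p = 0.104).

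**Figure D4:**
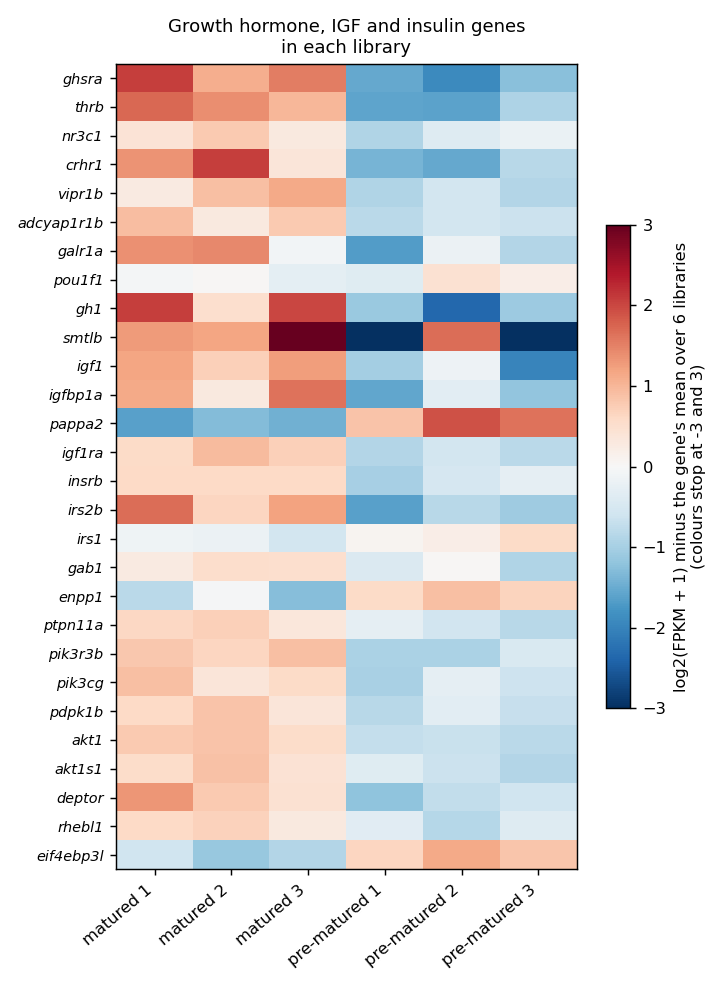
Colour gives log2(FPKM + 1) minus the gene's mean over the 6 libraries (columns), with colours stopping at -3 and 3, for 28 genes (rows) in the order secretion regulators, hormones, IGF system, receptors and adaptors, and the PI3-kinase and mTOR branch. Most rows are red in matured and blue in pre-matured libraries, while pappa2, enpp1 and eif4ebp3l are reversed and pou1f1 and irs1 are pale.

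Of 17 tested insulin and IGF receptors and adaptors, 4 rose and 1 fell, or 23.5% and 5.88% beside 21.9% and 10.6% of tested genes with a symbol. The share of higher genes was thus near the background, and 3 of the 4 were igf1ra, insrb and irs2b. Without these 3, 1 of 14 rose and 1 fell, and the median log2 fold change was 0.61 against 0.65 with them. The other higher gene was gab1, a docking adaptor, which rose to 27.5 ± 2.89 FPKM from 15.1 ± 5.25 (SD, n = 3; limma adjusted p = 0.0350) and lost its call in 9 of 14 alternatives. The gene that fell was enpp1, a membrane pyrophosphatase known in humans to inhibit the insulin receptor, at 1.74, 3.71 and 0.988 FPKM in the matured glands, and 6.18, 7.96 and 6.65 FPKM in those labelled pre-matured. Its log2 fold change was -1.42 (limma adjusted p = 0.0140), and without matured 1 it did not pass (adjusted p = 0.0533, in a range of 0.00519 to 0.0533). The IGF-2 and mannose-6-phosphate receptor gene igf2r did not pass, with 3.42 ± 0.320 against 3.66 ± 0.830 FPKM and a log2 difference of -0.06 (95% confidence interval -0.63 to 0.51). Under TPM the counts were 8 up and 1 down, and with quantile normalization 3 rose and 3 fell.

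Downstream, 11 of 40 tested genes of the PI3-kinase, AKT, FOXO and mTOR branch rose and 2 fell, which is 27.5% higher beside 21.9%, and 2 of 40 lower beside 10.6%, of tested genes with a symbol. The median log2 fold change was 0.34 beside 0.23 for all genes. Of the higher genes, pik3cg could not have met the filter without the matured libraries. The PI3-kinase regulatory subunit gene pik3r3b rose to 5.69 ± 0.623 FPKM from 1.27 ± 0.454 (SD, n = 3; limma adjusted p = 0.00350), as did the catalytic subunit gene pik3cg with a log2 fold change of 1.23 (limma adjusted p = 0.0129), a call lost without matured 1. The gene of the AKT-activating kinase PDK1, pdpk1b, rose to 26.2 ± 4.74 FPKM from 10.7 ± 2.25 (SD, n = 3; limma adjusted p = 0.00568). The kinase gene akt1 was at 8.81, 9.22 and 7.25 FPKM in the matured glands, and 2.47, 2.54 and 2.23 FPKM in those labelled pre-matured (limma adjusted p = 0.00279). A further AKT gene, akt3a, was called higher with a log2 fold change of 0.99 (limma adjusted p = 0.0363), a call not kept in every alternative. Other genes of the same steps did not pass, with log2 differences of -0.30 for pik3cb, -0.36 for pik3r1, -0.03 for pik3r4, 0.56 for pik3cd and 0.33 for akt2. Genes of the lipid phosphatases that oppose PI3-kinase were called higher too, ptenb with a log2 fold change of 0.76 and inppl1a with 0.97 (limma adjusted p = 0.0147 and 0.0263). Each lost its call in 4 of 14 alternatives, ptenb without matured 1 or 2 and inppl1a without matured 1 or 2 or pre-matured 1 or 3 among them.

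Genes around mTOR moved in both directions. Those of the mTOR inhibitors DEPTOR and PRAS40, deptor and akt1s1, had log2 fold changes of 1.70 and 1.24 upward, and rhebl1, a relative of the mTOR activator RHEB, rose with 1.05 (limma adjusted p = 0.00432, 0.00748 and 0.0102). The gene tsc2 was called higher with a log2 fold change of 1.04 (limma adjusted p = 0.0372), a call not kept in every alternative. The translation repressor gene eif4ebp3l reached 29.0, 19.5 and 23.4 FPKM in matured 1, 2 and 3 and 69.2, 98.9 and 79.7 FPKM in pre-matured 1, 2 and 3 (log2 fold change -1.75, limma adjusted p = 0.00162). The other gene that fell, ddit4, an mTOR inhibitor induced by stress, was named after its values were seen (log2 fold change -1.11, limma adjusted p = 0.0157), and its call was lost with TPM, when genes above 1% were left out of the totals, and without matured 1 or matured 3. The mtor gene itself was lower in the mean, 9.77 ± 1.31 against 14.8 ± 4.63 FPKM (SD, n = 3), without passing (limma adjusted p = 0.151). With TPM 17 of this list rose and 1 fell, and with voom on rebuilt reads 9 rose and 6 fell.

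**Figure D5:**
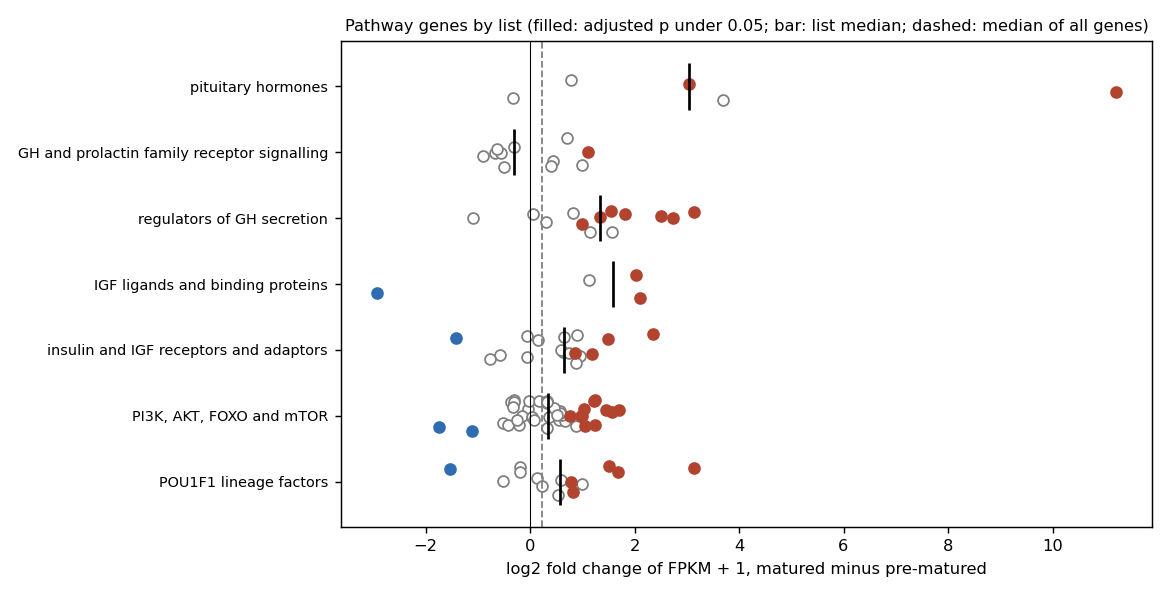
Log2 fold change of FPKM + 1 (x axis, matured minus pre-matured) of every tested gene in 7 lists (rows), filled red where higher and blue where lower at a limma adjusted p under 0.05, with a bar at each list's median. Regulators of GH secretion have their median at 1.34, against a dashed line at 0.23 for all genes, and the receptor signalling list lies below it at -0.31.

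Of 14 tested factors of the POU1F1 lineage and its neighbours, 5 rose and 1 fell, or 35.7% and 7.14% beside the 21.9% and 10.6% of tested genes with a symbol. The median log2 fold change was 0.57, beside 0.23 for all genes tested. With no filter 3 of 20 rose and 1 fell, with a median of 0.18 beside 0.10. Without pre-matured 1, 2 of 14 rose and 1 fell, with a median of 0.20 beside 0.17. With a 5 FPKM filter 5 of 11 rose and 1 fell, with a median of 0.78 beside 0.20. The homeobox gene pitx1 rose to 368 ± 166 FPKM from 120 ± 21.1, pax7b to 11.8 ± 5.04 from 0.465 ± 0.618 and eya1 to 77.3 ± 21.4 from 23.5 ± 7.54 (SD, n = 3 per group; limma adjusted p = 0.0140, 0.00142 and 0.00417). The genes neurod1 and six3a were up by 0.82 and 0.78 on the log2 scale, and each lost its call in 8 of 14 alternatives. The call of pitx1 was lost without matured 1 or pre-matured 1. In pre-matured 1, 2 and 3 pax7b was at 0.142, 1.18 and 0.0751 FPKM. It could not have met the filter without the matured libraries. The corticotroph and melanotroph factor gene tbx19 fell to 45.4 ± 4.92 FPKM from a pre-matured mean of 139 ± 51.8 (SD, n = 3; limma adjusted p = 0.00576). Among pituitary hormones 2 of 5 tested rose, gh1 and the luteinizing hormone beta subunit gene lhb, which was at 5835 to 13430 FPKM in matured and 0.394 to 29.8 FPKM in pre-matured libraries (limma adjusted p = 0.00128). The prolactin gene by symbol, prl, is listed at 0 in 5 libraries and at 0.0436 FPKM in matured 1.

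Over the 7 lists together, 32 of 104 tested genes rose and 5 fell, which is 30.8% and 4.81% beside 21.9% and 10.6% of tested genes with a symbol. Without the 5 genes described here, 28 of 99 rose and 5 fell, or 28.3% and 5.05%. Both counts hold genes that could not have met the filter on low values without the matured libraries. Among them are adcyap1r1b, ghsra, crhr1, galr1a, igf1, pik3cg, pax7b and lhb. The same filter set the genes of the background. Without matured 1 the counts of all list genes were 21 and 3. With TPM 45 rose and 4 fell, with quantile normalization 29 and 12, and with median-ratio scaling 27 and 12.

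Genes whose pattern over the 6 libraries was most like that of a member were found among 6323 or more tested genes with a symbol and a mean of at least 5 FPKM. Likeness was the root mean square difference of centred log2(FPKM + 1), and it describes these libraries only. For gh1 the nearest were ghsra (0.40, where gh1 itself spans 4.43), a gene with a clone name only and the fibroblast growth factor receptor gene fgfr3 (both 0.49). The added 1 compresses these low genes. In mean FPKM ghsra rose 17.5-fold and the clone-named gene 27.4-fold, against 8.60-fold for gh1. Listed values of fgfr3 were 0, 0 and 0.715 FPKM in pre-matured 1, 2 and 3. The clone-named gene and fgfr3 met the filter through the matured libraries alone, and ghsra could not have met it without them. For smtlb, which spans 7.33, no gene came nearer than 1.14. Its nearest were the homeobox gene vax1 (1.14), the photoreceptor phosphodiesterase gene pde6a (1.15) and the melanin-concentrating hormone gene pmch (1.28). The levels of vax1 were 58.5, 81.0 and 87.6 FPKM in the matured glands, and 14.4, 129.9 and 3.06 FPKM in those labelled pre-matured, and those of pmch were 16.2, 38.0 and 112 against 4.62, 25.05 and 3.42 FPKM. Both were highest of the pre-matured libraries in pre-matured 2, as smtlb was, and neither passed with all libraries (limma adjusted p = 0.220 and 0.0746). Without pre-matured 2 both passed (limma adjusted p = 0.00886 and 0.0248), and pmch passed in 3 of 14 alternatives. The third gene, pde6a, reached 29.6, 20.04 and 32.2 FPKM in matured 1, 2 and 3 and 0.257, 7.74 and 0.680 FPKM in pre-matured 1, 2 and 3. Its groups did not overlap and it passed (limma adjusted p = 0.00958).

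For igf1ra the nearest genes were stx4, a SNARE of the plasma membrane (0.052, where igf1ra spans 1.82), miga2, a regulator of mitochondrial fusion (0.074), and the glypican gene gpc3 (0.080). This likeness holds on log2(FPKM + 1), where igf1ra is compressed: in mean FPKM the 3 genes rose 2.80-, 3.39- and 3.403-fold, against 8.80-fold for igf1ra. For insrb they were the retromer gene vps26bl (0.054, where insrb spans 1.5998), gnai2a, an inhibitory G protein subunit gene (0.058), and the transcription factor gene sp2 (0.059). For irs2b the homeobox gene dmbx1a was nearest (0.11, where irs2b spans 3.32), at 42.5, 18.0 and 30.2 FPKM in the matured glands, and 3.76, 5.70 and 5.97 FPKM in those labelled pre-matured. It was followed by the surface protein gene cd99 (0.21) and the transporter gene flvcr1 (0.24).

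Markers of other cells of the gland were compared by their summed FPKM. Their counts of called genes stand beside 21.9% higher and 10.6% lower among tested genes with a symbol. Endothelial markers summed to 92.7 to 107 FPKM in matured and 55.0 to 107 in pre-matured libraries, with 1 of 13 tested higher, plvapb. Glial and neural lobe markers summed to 97.2 to 130 against 135 to 227 FPKM, with 1 of 6 higher. Of that, fabp7b alone gave 62.4 to 99.6 FPKM in matured and 107 to 115 FPKM in pre-matured libraries. Leukocyte markers summed to 587 to 719 against 541 to 1009 FPKM, with 1 of 7 higher. Most of that sum was cd74b, at 433 to 541 FPKM in matured and 411 to 826 FPKM in pre-matured libraries. The higher gene, csf1ra, met the filter through the matured libraries alone. Fibroblast markers summed to 77.9 to 142 against 67.8 to 86.1 FPKM, with 1 of 7 higher and 1 lower. The higher one, pdgfra, also met the filter through the matured libraries alone. The 3 red blood cell markers summed to 11.1 to 15.9 against 20.4 to 90.5 FPKM, and alas2, of heme synthesis, fell. No marker matched by symbol was at 0 in all libraries, and the part of these cell types in the values above was not tested.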

How the data were processed

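Total RNA of 6 pituitary samples was sequenced after TRIzol extraction and an NEBNext Ultra II library kit, per the labels' protocols. The submitters' processing notes name CASAVA 1.8. Not given in the sources used here are aligner, read counter, annotation and genome build. The authors' deposited table gives 1 FPKM value per gene and library. That unit was read from the values, and RPKM cannot be told apart from it. Whole reads were rebuilt from ratios of the values for 25782 genes (100% of genes above 0 in at least 2 libraries, relative tolerance 1e-10; 0 of 300 scrambled genes), and they made up 99.3% to 99.6% of the depth. They were used for depth, counting error and 1 alternative. No 2 libraries were near-identical (highest correlation 0.947).

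Groups came from the labels' age field, and replicate numbers follow accession order. Genes reaching 1 FPKM in 3 or more libraries (2 when 1 library was left out) were fitted by limma 3.58.1 (R 4.3.3, trend and robust) on log2(FPKM + 1), adjusted over all genes tested by Benjamini-Hochberg. Fold changes on this scale understate low genes. Single values per library were compared by exact two-sided permutation (Python 3.11.15), 5 measures in all. The members and the gene lists were chosen with earlier results of these data known. Lists were matched by symbol, so 137 of 242 symbols in the 7 pathway lists were found and 104 tested. Named genes are the members, irs1, up to 8 called genes per list with the smallest p and the 3 most alike genes of each member. Other genes that did not pass or were too low to be tested (sstr1a, sstr2a, stat5a, socs2, ghra, igfbp3, stc2a, igf2b, igf2r, mtor, pik3cb, pik3r1, pik3r4, pik3cd, akt2, prl, fabp7b, cd74b) were named after their values were seen. So were the called genes ptenb, inppl1a, akt3a and tsc2. The rebuilding of reads and the fit were tested on simulated data. Alternatives were 2 filters, a pseudocount of 0.1, 4 scalings, voom on rebuilt reads and leaving out each library. No sequence or genome was used here.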

Additional observations from a re-analysis of the deposited data

How the results depend on the processing

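No paired analysis was possible because replicate numbers only name the samples, in accession order. Growth hormone, igf1ra, insrb and irs2b kept their direction and call in every alternative that tested them (14, 13, 14 and 14), and igf1ra was under the 5 FPKM filter. Their log2 fold changes ranged from 2.64 to 3.85, 1.22 to 2.94, 0.93 to 1.53 and 2.10 to 2.77. For smtlb the call appeared with quantile normalization (log2 fold change 4.25) and without pre-matured 2 (5.46), and leaving out 1 library gave 2.50 to 5.46. The log2 ratio of smtlb to gh1 was 0.67 and ran from -0.75 to 2.86 with 1 library left out. The ratio of irs2b to irs1 moved from 3.71 to 2.93 with 1 added to each FPKM. Of all genes, 2714 were higher with a 5 FPKM filter, which tests fewer genes. Lower genes numbered 978 with TPM, 1041 with totals taken without genes above 1%, 2798 with median-ratio scaling and 2737 with quantile normalization. With 1 library left out, 2610 to 3880 were higher and 1009 to 1628 lower. In the pathway lists, lower genes numbered 13 with voom and 12 each with median-ratio scaling and quantile normalization, and with 1 library left out 21 to 36 were higher and 3 to 7 lower. The causes of these shifts were not tested. Of 33 called list genes other than the members, 19 kept their call wherever tested. The planned ratios of igf1ra to igf1rb, insra to insrb, irs2a to irs2b and smtla to smtlb were not run. For these pairs igf1rb, insra, irs2a and smtla were not matched by symbol. Depth limits igf1ra most, at 21 to 53 reads in pre-matured libraries.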
